A study of Mus musculus with 19 samples.

Results

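The leukotriene and prostaglandin pathway was followed through 10 genes in sorted mouse myeloid progenitors: Alox5, Alox5ap, Lta4h, Ltc4s, Alox15, Cysltr1, Cysltr2, Ptgs1, Ptgs2 and Hpgds. They were chosen by pathway membership, with their levels in these same arrays already known, so the p-values below describe how far a gene moved against the spread between arrays and are no independent evidence. All 10 were measured, through 109 of the 194293 probe sets and as 10 of 15781 genes. A gene's level is its mean log2 intensity over the probe sets annotated to it and to no other gene, which for Hpgds includes an older symbol.

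Exon arrays were run on 19 samples sorted from whole bone marrow, either common myeloid progenitors (CMP) or their descendants committed to granulocytes and monocytes (GMP). The title of the study links the leukaemia caused by the PML-RARA fusion to Dnmt3a, a DNA methyltransferase that adds methyl groups to CpG dinucleotides. The C57Bl/6J groups without the fusion were CMP of wild type (3 arrays) and of Dnmt3a-/- mice (3), and GMP of wild type (4) and of Dnmt3a-/- mice (3). Further arrays held PR+/- GMP (2), which kept Dnmt3a, and GMP of the compound genotype PR+/- Dnmt3a-/- (4). PR was read as PML-RARA from the title. The promoter that drives the fusion, the way in which Dnmt3a was deleted and the age of the mice are not given in the sources used here, and the PR+/- labels name no strain. Those arrays carry another style of label, so a separate array run and the PR+/- genotype cannot be told apart. Arrays without the fusion carry title numbers, and those of the Dnmt3a-/- arrays form a block apart from those of wild type. What these numbers stand for is not given, so a separate run cannot be told apart from Dnmt3a loss either. The labels do not say that arrays of a group came from separate mice, so the p-values cover no more than the spread among these samples. With 2 to 4 arrays per group, groups can also fail to overlap by chance. The share of all genes for which they do so is not given here.

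Leukotrienes and prostaglandins are signalling lipids made from arachidonic acid, and granulocytes, monocytes and mast cells are among their known sources. The 5-lipoxygenase Alox5, helped by the membrane protein Alox5ap, makes the unstable leukotriene A4. Lta4h turns it into the neutrophil attractant leukotriene B4, and Ltc4s joins it to glutathione, which starts the cysteinyl leukotrienes that Cysltr1 and Cysltr2 sense. Ptgs1 and Ptgs2, the constitutive and the inducible cyclooxygenase, start prostaglandin synthesis, and Hpgds makes prostaglandin D2.

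The targeted gene followed the labels: Dnmt3a lay between 7.24 and 7.65 in the wild-type arrays, at 7.07 and 7.20 in PR+/- GMP, and between 5.82 and 6.49 in all arrays labelled Dnmt3a-/-. Of the genes that define the sort, Fcgr3, a receptor used to tell GMP from CMP, had a mean of 9.24 in wild-type GMP and 7.10 in wild-type CMP, Kit and Cd34 had means of 9.0 to 10.34 in every group, and Ly6a, which the gate lacks, had means of 3.57 to 4.25. As a mark of background, 830 olfactory receptor genes had a median level of 2.74 and a 95th percentile of 4.79. In 5 arrays (wild-type CMP replicate 1, wild-type GMP replicates 1 and 2, and PR+/- Dnmt3a-/- GMP replicates 1 and 2) the mean of 16 immediate early and heat shock genes was 7.89 to 9.0, above the 6.29 to 7.45 of the other 14. The wild-type arrays among these 5 have consecutive title numbers, apart from those of the other wild-type arrays. The Y-linked genes Eif2s3y and Kdm5d were low in all 6 Dnmt3a-/- CMP and GMP arrays, in wild-type CMP replicate 3, wild-type GMP replicate 4 and PR+/- Dnmt3a-/- GMP replicate 2. Among the arrays without the fusion, Dnmt3a loss and a low Y-linked signal therefore largely went together. These arrays are all bulk samples, in which fewer cells of a type and less RNA per cell cannot be told apart.

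The stretches before the starts of 3 genes are shown because Dnmt3a acts on CpG dinucleotides and the differences below turn on these genes. They are the 250 bases upstream of the annotated start in RefSeq's GRCm38.p6, in lower case with each CG in capitals. Alox5 lies at chr6:116461179-116461428 on the minus strand, Cysltr2 at chr14:73049115-73049364 on the minus strand and Lta4h at chr10:93453146-93453395 on the plus strand.
Alox5: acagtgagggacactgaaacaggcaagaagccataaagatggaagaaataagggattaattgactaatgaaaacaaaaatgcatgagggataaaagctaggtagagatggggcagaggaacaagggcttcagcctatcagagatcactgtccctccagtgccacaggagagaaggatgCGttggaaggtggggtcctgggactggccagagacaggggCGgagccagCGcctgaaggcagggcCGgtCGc
Cysltr2: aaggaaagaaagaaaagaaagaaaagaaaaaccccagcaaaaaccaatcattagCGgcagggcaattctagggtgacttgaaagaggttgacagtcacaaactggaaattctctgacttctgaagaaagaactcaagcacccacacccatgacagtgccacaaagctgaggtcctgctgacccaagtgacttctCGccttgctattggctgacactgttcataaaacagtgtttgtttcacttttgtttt
Lta4h: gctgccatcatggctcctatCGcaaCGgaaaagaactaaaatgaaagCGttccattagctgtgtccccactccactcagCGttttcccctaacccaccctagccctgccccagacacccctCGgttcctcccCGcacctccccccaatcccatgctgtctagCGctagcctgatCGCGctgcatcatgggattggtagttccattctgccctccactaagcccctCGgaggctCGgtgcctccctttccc
The letters CG, which read the same on both strands, occurred 5 times before Alox5, 2 times before Cysltr2 and 11 times before Lta4h. Among the 32851 upstream windows of the table the median was 6, with quartiles of 2 and 16, and 92.1% held at least 1. Of the 10 members 7 had a window, and the other 4 held 13 (Ptgs2), 5 (Ptgs1), 3 (Ltc4s) and 3 (Hpgds). Methylation was not measured on these arrays.

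Alox5, the 5-lipoxygenase, was higher in GMP without Dnmt3a. Its level was 5.73, 6.00, 5.99 and 5.92 in wild-type GMP and 7.73, 7.61 and 7.33 in Dnmt3a-/- GMP. Each Dnmt3a-/- array was above each wild-type array. The rise was 1.64 ± 0.31 (log2, SE; 3.13-fold; limma adjusted p = 0.0245). Alox5 was the only member called in this comparison, in which 1.33% of all genes passed. Leaving out Dnmt3a-/- replicate 1 or 2, or wild-type replicate 1 or 4, ended the call (limma adjusted p up to 0.120), as did a covariate for the Y-linked signal (limma adjusted p = 0.0569). All 15 Alox5 probe sets were higher on average, and in 12 the groups did not overlap. In CMP the gene was at 6.34, 5.48 and 4.84 in wild type and at 6.87, 6.04 and 5.71 without Dnmt3a. These arrays overlapped, and the difference of 0.65 ± 0.33 did not pass (limma adjusted p = 0.421).

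**Figure D1:**
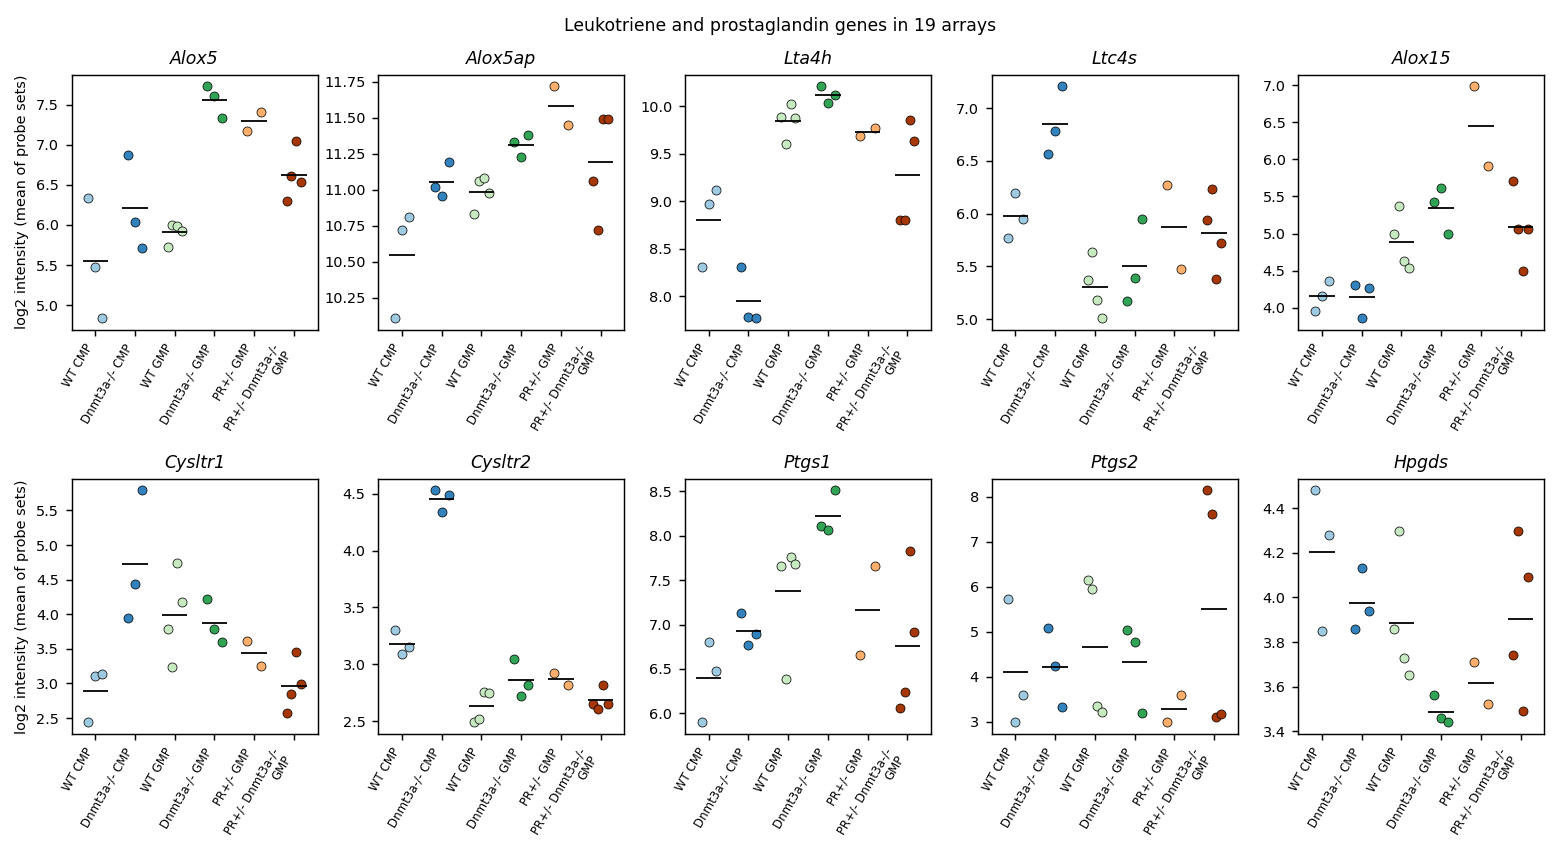
Level of each gene (log2 intensity, y axis, separate scale per gene) in the 19 arrays by group (x axis); points are arrays and bars are group means. The 3 Dnmt3a-/- GMP arrays and both PR+/- GMP arrays are above all wild-type GMP arrays in Alox5, and the 3 Dnmt3a-/- CMP arrays are above all others in Cysltr2.

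With the PML-RARA fusion Alox5 was also high, and loss of Dnmt3a went the other way. PR+/- GMP had 7.17 and 7.41, and PR+/- Dnmt3a-/- GMP had 6.30, 6.61, 7.04 and 6.54. Both PR+/- arrays were above all wild-type GMP arrays and above all 4 PR+/- Dnmt3a-/- arrays. Against wild-type GMP the gene rose by 1.38 ± 0.20 in PR+/- GMP (2.60-fold; limma adjusted p = 0.00287), a call that held with each of the 6 arrays left out in turn (limma adjusted p at most 0.0388). In that comparison 2 members were called, Alox5 and Alox15, and 3.07% of all genes. Within the PR+/- arrays the difference without Dnmt3a was -0.66 ± 0.22 and did not pass (limma adjusted p = 0.620). There 0 members and 0% of genes were called, with 1256 genes at an unadjusted p under 0.05. PR+/- Dnmt3a-/- GMP was also below Dnmt3a-/- GMP, in which Alox5 fell by 0.93 ± 0.17 (limma adjusted p = 0.0198). It was the member called among 1.24% of all genes, and the call was lost without Dnmt3a-/- replicate 1 or 2 or PR+/- Dnmt3a-/- replicate 1 or 4 (limma adjusted p up to 0.115).

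In the main fit the effect of Dnmt3a loss on Alox5 differed between both backgrounds. The difference, effect in PR+/- minus effect in wild-type GMP, was -2.31 ± 0.26 (limma adjusted p = 0.00769). Alox5 had the lowest p of all genes in this test and was 1 of the 5 that passed, or 0.0317%. It passed with each of the 13 GMP arrays left out in turn, at a limma adjusted p of at most 0.0435. Without the 5 arrays of high immediate early genes it was -2.10 (limma adjusted p = 0.0872), and with the Y-linked covariate -2.29 (limma adjusted p = 0.0502), so it passed in neither. The mean of the Y-linked genes was 2.54 to 2.91 in Dnmt3a-/- GMP and 3.25 to 7.04 in wild-type GMP. It was 3.12 to 7.01 in PR+/- Dnmt3a-/- GMP and 6.73 to 6.87 in PR+/- GMP. The Y-linked signal was thus unequal across this contrast and cannot be fully told apart from genotype. From the lowest Alox5 group mean to the highest, the order was wild-type CMP, wild-type GMP, Dnmt3a-/- CMP, PR+/- Dnmt3a-/- GMP, PR+/- GMP and Dnmt3a-/- GMP. Of the neighbours in that order, PR+/- Dnmt3a-/- and PR+/- GMP alone had arrays that did not overlap.

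**Figure D2:**
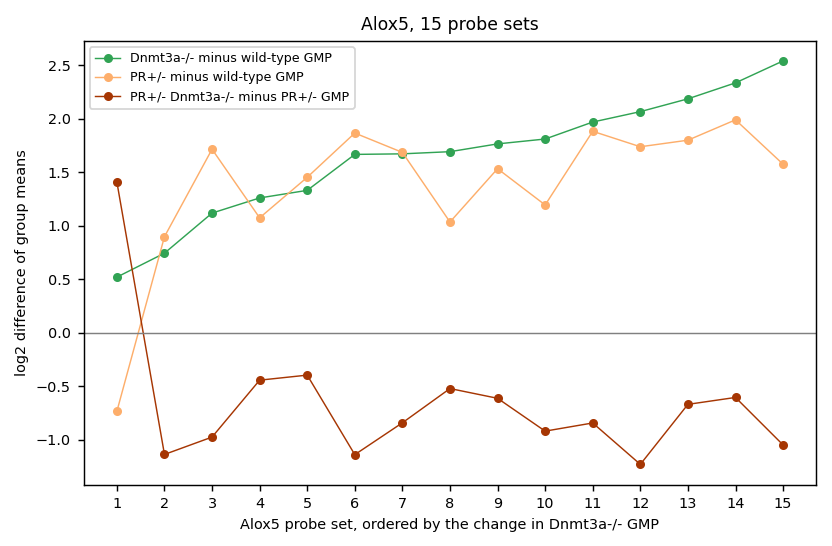
Difference of group means (log2, y axis) for each of the 15 Alox5 probe sets, ordered by the difference between Dnmt3a-/- and wild-type GMP (x axis). In Dnmt3a-/- GMP 15 of 15 are above 0, in PR+/- GMP 14 are above 0 and in PR+/- Dnmt3a-/- against PR+/- GMP 14 are below 0; lines only join points of a comparison.

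Genes of several cell types also differed between these groups. The mean of 14 basophil and mast cell genes was 6.38 to 6.85 in wild-type GMP, 7.30 to 7.79 in Dnmt3a-/- GMP, 7.67 to 7.73 in PR+/- GMP and 7.42 to 7.97 in PR+/- Dnmt3a-/- GMP. Of the 14, 4 rose in Dnmt3a-/- GMP and 6 in PR+/- GMP against wild type, and 0 fell. The mean of 15 neutrophil maturation genes was 7.74 to 8.28, 8.81 to 9.94, 8.68 to 8.94 and 7.69 to 8.51 in the same order of groups, and 5 of the 15 rose in Dnmt3a-/- GMP and 1 in PR+/- GMP. Dnmt3a-/- replicate 1 was the highest GMP array, at 9.94 beside 8.81 and 8.82 in its group. Monocyte genes went the other way. The mean of 11 of them was 7.77 to 7.86 in wild-type GMP, 7.13 to 7.37 in Dnmt3a-/- GMP, 6.91 to 7.11 in PR+/- GMP and 6.51 to 6.77 in PR+/- Dnmt3a-/- GMP. In Dnmt3a-/- GMP 3 of the 11 fell and 0 rose, and in PR+/- GMP 4 fell and 1 rose. Of the 11 megakaryocyte and 11 dendritic cell genes, 3 and 4 rose in Dnmt3a-/- GMP, and 3 and 0 in PR+/- GMP. The mean of 7 GMP granule genes was 9.94 to 10.22 in wild-type GMP and 10.51 to 10.70 in Dnmt3a-/- GMP. It was 10.23 to 10.39 in PR+/- GMP and 9.13 to 9.81 in PR+/- Dnmt3a-/- GMP. Of these 7 genes, 1 rose in Dnmt3a-/- GMP and 0 in PR+/- GMP, and 0 fell. No gene is at 0 on this scale. Of the basophil and mast cell genes 4 to 5 per group had means under the background percentile of 4.79. The part of these cells in the Alox5 differences was not tested. The genes whose profile over the 19 arrays was most like that of Alox5 were Ets1, Actn1 and Pip5k1b, at a root mean square difference of 0.43, 0.44 and 0.45 between profiles centred on their means. Alox5 itself varied by 0.77 on that measure.

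Its helper Alox5ap was among the brighter genes, with group means from 10.55 in wild-type CMP to 11.59 in PR+/- GMP. Dnmt3a-/- arrays lay above wild-type arrays in CMP (10.96 to 11.19 against 10.11 to 10.81) and in GMP (11.23 to 11.38 against 10.83 to 11.08), with no overlap in either. The differences were 0.51 ± 0.17 and 0.32 ± 0.16 and did not pass (limma adjusted p = 0.191 and 0.294). Averaged over both cell types the difference was 0.42 ± 0.12 (limma adjusted p = 0.0551), which passed without wild-type CMP replicate 3 (0.48, limma adjusted p = 0.0481). In that averaged comparison 2 members, Alox5 (1.15 ± 0.23, limma adjusted p = 0.0130) and Cysltr2 (0.76 ± 0.09, limma adjusted p = 8.12e-04), and 5.75% of all genes were called. Neither passed with the Y-linked covariate (limma adjusted p = 0.0556 and 0.0544).

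Cysltr2, a receptor for cysteinyl leukotrienes, was the member called in Dnmt3a-/- CMP, among 1.28% of all genes. Its level was 3.30, 3.09 and 3.15 in wild-type CMP and 4.53, 4.34 and 4.49 in Dnmt3a-/- CMP. The groups did not overlap, and the rise was 1.28 ± 0.14 (limma adjusted p = 5.84e-04). All 9 probe sets were higher, 6 of them with no overlap, and the call held with each of the 6 arrays left out (limma adjusted p at most 0.00642). All these levels are under the 4.79 below which 95% of olfactory receptor genes lie, so the gene is dim even where it is highest, and no fold is given. In the GMP groups its means were 2.63 to 2.87, around the median of those genes. Its difference in Dnmt3a-/- GMP did not pass (0.24 ± 0.13, limma adjusted p = 0.330). The difference of the Dnmt3a-/- effect between GMP and CMP was -1.04 ± 0.19 (limma adjusted p = 0.182). In that test 0 members and 0% of genes were called, with 1083 genes at an unadjusted p under 0.05.

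Beside the Cysltr2 rise in CMP, the mean of 11 megakaryocyte and platelet genes was 6.19 to 6.36 in wild type and 7.46 to 7.88 without Dnmt3a, and that of 11 dendritic cell genes 6.01 to 6.51 and 7.56 to 8.03. Of these lists 5 and 7 genes rose, and 0 fell. The neutrophil list was at 7.82 to 7.95 and 8.75 to 10.27, of which 4 of 15 genes rose, and the monocyte list at 7.25 to 7.56 and 6.65 to 7.07, of which 3 of 11 fell. The mean of 8 stem and multipotent cell genes was 6.08 to 6.49 and 6.73 to 6.93, and 4 rose and 0 fell. Of 6 B cell genes 2 rose and 0 fell, and of 7 GMP granule genes 3 fell and 0 rose. Their part in the result was not tested. The genes most like Cysltr2 over the arrays were Gata3, Robo3 and Trpc6, at root mean square differences of 0.23, 0.25 and 0.25 against a spread of 0.63. Gata3, a transcription factor of lymphoid and other lineages, had a mean of 5.53 in Dnmt3a-/- CMP, 4.56 in wild-type CMP and 4.14 to 4.22 in the GMP groups.

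The other receptor, Cysltr1, was at 2.44, 3.11 and 3.13 in wild-type CMP and at 3.95, 4.44 and 5.79 in Dnmt3a-/- CMP. The groups did not overlap and all 8 probe sets were higher, but the difference of 1.83 ± 0.44 did not pass (limma adjusted p = 0.0633). It passed without Dnmt3a-/- CMP replicate 1 (2.22, limma adjusted p = 0.0440). Its spread in Dnmt3a-/- CMP was wide (SD 0.95, n = 3), and all group means were under 4.79. In GMP the groups overlapped, at 3.24 to 4.74 in wild type and 3.60 to 4.22 without Dnmt3a.

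**Figure D3:**
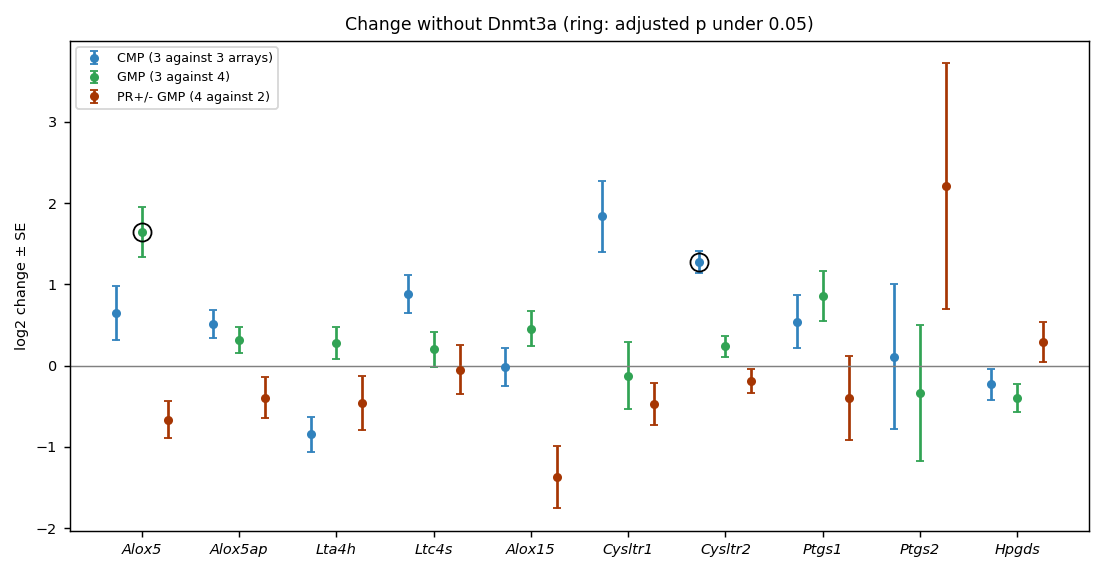
Change without Dnmt3a (log2, y axis) of the 10 genes (x axis) in CMP, GMP and PR+/- GMP; points are fitted changes, bars are standard errors, and rings mark a limma adjusted p under 0.05. Rings stand at Alox5 in GMP and Cysltr2 in CMP.

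The enzymes below leukotriene A4 separated the cell types. Lta4h, which makes leukotriene B4, was at 8.31, 8.97 and 9.12 in wild-type CMP and at 9.89, 9.60, 10.02 and 9.87 in wild-type GMP. All GMP arrays were above all CMP arrays, a rise of 1.05 ± 0.20 (2.07-fold; limma adjusted p = 0.00891). With these 2 groups alone in the fit the limma adjusted p was 0.0504. Without Dnmt3a the levels were 8.31, 7.78 and 7.77 in CMP and 10.21, 10.03 and 10.12 in GMP. Here the rise was 2.17 ± 0.21 (4.50-fold; limma adjusted p = 6.52e-05), and in all 17 probe sets the groups did not overlap. Within CMP, all 17 probe sets were lower on average without Dnmt3a, and the difference of -0.85 ± 0.21 did not pass (limma adjusted p = 0.0775). It passed without wild-type CMP replicate 1 (-1.09, limma adjusted p = 0.0149), the array of high immediate early genes. That array also differed from wild-type CMP replicates 2 and 3 in genes of several cell types. Its mean of the 7 GMP granule genes was 8.11, beside 9.60 and 9.58. For 7 erythroid genes its mean was 8.34, beside 7.19 and 6.82. For 6 B cell genes it was 6.43, beside at most 5.06. The difference of the 2 gaps, 1.12 ± 0.29, did not pass (limma adjusted p = 0.376). Of the 7 GMP granule genes, 7 rose in GMP against CMP without Dnmt3a and 1 in wild type, and 0 fell. In Dnmt3a-/- against wild-type CMP 3 of them fell and 0 rose. Their mean was 8.11 to 9.60 in wild-type CMP and 8.12 to 8.44 in Dnmt3a-/- CMP. The part of the granule, erythroid and B cell genes in the Lta4h differences was not tested. Agps, Pgd and Clec12a had the profiles most like Lta4h (root mean square differences of 0.18, 0.20 and 0.26 against a spread of 0.77).

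Ltc4s, which makes leukotriene C4, ran the other way between the cell types. In Dnmt3a-/- CMP it was at 6.57, 6.78 and 7.21 and in Dnmt3a-/- GMP at 5.17, 5.39 and 5.95. The groups did not overlap, and the gene fell by 1.35 ± 0.23 in GMP (limma adjusted p = 0.00201), with all 7 probe sets lower. In wild type the values were 5.77, 6.20 and 5.95 in CMP against 5.37, 5.64, 5.18 and 5.01 in GMP. These did not overlap either, but the difference of -0.67 ± 0.22 did not pass (limma adjusted p = 0.116). Within CMP all Dnmt3a-/- arrays lay above all wild-type arrays (0.88 ± 0.23, limma adjusted p = 0.0907). Averaged over both cell types the difference was 0.54 ± 0.16 (limma adjusted p = 0.0618), which passed without wild-type GMP replicate 2 (0.60, limma adjusted p = 0.0437). Pear1, Nrgn and Ttc39b were most like it (0.27, 0.30 and 0.30 against a spread of 0.57). Of the 11 megakaryocyte and 11 dendritic cell genes, 8 and 10 fell in GMP against CMP without Dnmt3a. In wild type 6 and 7 of them fell, and 0 rose in either. Of 8 stem and multipotent cell genes, 7 fell without Dnmt3a and 5 in wild type, and 0 rose. Of 7 erythroid genes 5 fell in each, and 1 rose without Dnmt3a. In the GMP granule, eosinophil, and basophil and mast cell lists more genes rose than fell in both. Of all genes 10.1% were called without Dnmt3a and 4.3% in wild type. Their part in the Ltc4s differences was not tested.

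Over both comparisons of cell type, GMP against CMP called 2 members in wild type, Lta4h higher and Cysltr2 lower, where 4.3% of all genes passed. In Dnmt3a-/- cells it called 6, where 10.1% passed: Alox5, Lta4h, Alox15 and Ptgs1 rose and Ltc4s and Cysltr2 fell. Alox5 rose by 1.35 ± 0.33 (limma adjusted p = 0.0199), a call lost without Dnmt3a-/- CMP replicate 2 or 3 or Dnmt3a-/- GMP replicate 1 or 2 (limma adjusted p up to 0.0986). Cysltr2 fell by 1.59 ± 0.14 (limma adjusted p = 2.42e-05), in all 9 probe sets. In wild type it fell from 3.18 to 2.63. Both means are under the background percentile of 4.79, so no fold is given. The limma adjusted p of 0.0282 rose to between 0.0525 and 0.119 without any 1 of the CMP arrays or without GMP replicate 1 or 2.

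**Figure D4:**
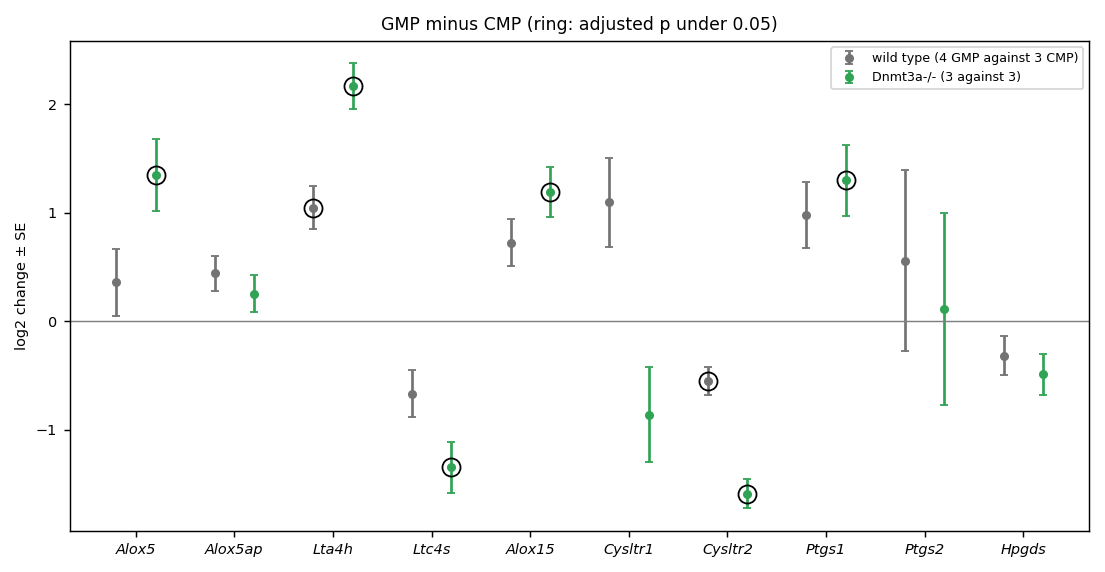
GMP minus CMP (log2, y axis) for the 10 genes (x axis) in wild type and in Dnmt3a-/- cells; points are fitted differences, bars are standard errors, and rings mark a limma adjusted p under 0.05. There are 2 rings in wild type and 6 in Dnmt3a-/- cells.

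Alox15, a lipoxygenase of eosinophils and macrophages that oxidises arachidonate at other carbons, was highest in PR+/- GMP, at 6.99 and 5.91. Wild-type GMP had 5.0, 5.37, 4.63 and 4.53, and PR+/- Dnmt3a-/- GMP had 5.71, 5.06, 4.50 and 5.06. Both PR+/- arrays were above every array of the other 5 groups. Against wild-type GMP the gene rose by 1.57 ± 0.35 (2.97-fold; limma adjusted p = 0.0320). This rested on PR+/- replicate 1: without it the difference was 1.03 (limma adjusted p = 0.469). Leaving out wild-type replicate 1, 3 or 4 also ended the call (limma adjusted p 0.0523 to 0.0734). Without Dnmt3a in PR+/- GMP the difference was -1.37 ± 0.39 (limma adjusted p = 0.593), with no overlap between 4 and 2 arrays.

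In CMP Alox15 was at 3.96 to 4.36 in wild type and 3.86 to 4.31 without Dnmt3a, all under 4.79. At 5.42, 5.61 and 4.99 in Dnmt3a-/- GMP, it was above Dnmt3a-/- CMP, and the rise was 1.19 ± 0.23 (limma adjusted p = 0.00465; 0.195 with the median of the probe sets). The mean of 6 eosinophil genes was 3.33 to 4.28 in Dnmt3a-/- CMP and 7.24 to 7.54 in Dnmt3a-/- GMP, where 5 of the 6 rose. In wild-type GMP it was 5.55 to 7.24, which overlaps the 7.01 to 7.40 of PR+/- GMP, and 0 of the 6 passed between these groups. It was 6.10 to 7.87 in PR+/- Dnmt3a-/- GMP. Their part in the Alox15 differences was not tested. Xdh, Bmx and Sncaip had the profiles most like Alox15 (0.39, 0.40 and 0.42 against a spread of 0.76).

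Ptgs1, the constitutive cyclooxygenase, had its highest group mean in Dnmt3a-/- GMP, at 8.11, 8.06 and 8.51. Wild-type GMP had 7.66, 6.39, 7.76 and 7.68, all lower, with replicate 2 far below the others. The difference of 0.86 ± 0.31 did not pass (limma adjusted p = 0.173), and without that replicate it was 0.53 (limma adjusted p = 0.205). Against Dnmt3a-/- CMP, at 7.13, 6.77 and 6.89, Ptgs1 rose by 1.30 ± 0.33 (2.46-fold; limma adjusted p = 0.0221), and all 13 probe sets were higher. That call was lost without Dnmt3a-/- CMP replicate 2 or 3 or Dnmt3a-/- GMP replicate 1 or 3 (limma adjusted p 0.0505 to 0.0923). Wild-type CMP had 5.90, 6.80 and 6.48, below wild-type GMP but for its replicate 2, and 0.98 ± 0.31 did not pass (limma adjusted p = 0.101). Without wild-type GMP replicate 2 the difference was 1.31 (limma adjusted p = 0.00414). PR+/- Dnmt3a-/- GMP, at 6.06, 6.24, 7.83 and 6.92, was below Dnmt3a-/- GMP in every array, by 1.47 ± 0.43 (limma adjusted p = 0.129). Without its replicate 3 the difference was -1.82 (limma adjusted p = 0.0270), and Lta4h (-1.05, limma adjusted p = 0.0248) passed too. Rnf144b, Pram1 and Lyst were most like Ptgs1 (0.30, 0.37 and 0.38 against a spread of 0.74).

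Ptgs2, the inducible cyclooxygenase, was not called in any of the 10 comparisons. In the 5 arrays of high immediate early genes it was at 5.73 in wild-type CMP, 6.14 and 5.95 in wild-type GMP, and 8.14 and 7.62 in PR+/- Dnmt3a-/- GMP. The other 14 arrays lay between 2.99 and 5.09, with a median of 3.34. PR+/- Dnmt3a-/- GMP thus held 2 arrays above 7.6 and 2 at 3.10 and 3.17. The difference to PR+/- GMP, 2.21 ± 1.51 (limma adjusted p = 0.690), became -0.16 without the 5 arrays. Its nearest profiles were those of Egr1, Atf3 and Trib1 (0.67, 0.75 and 0.76 against a spread of 1.56), of which Egr1 and Atf3 are in the immediate early list. The wild-type arrays among the 5 have consecutive title numbers, apart from the other wild-type arrays. Why the 5 arrays were high was not tested.

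**Figure D5:**
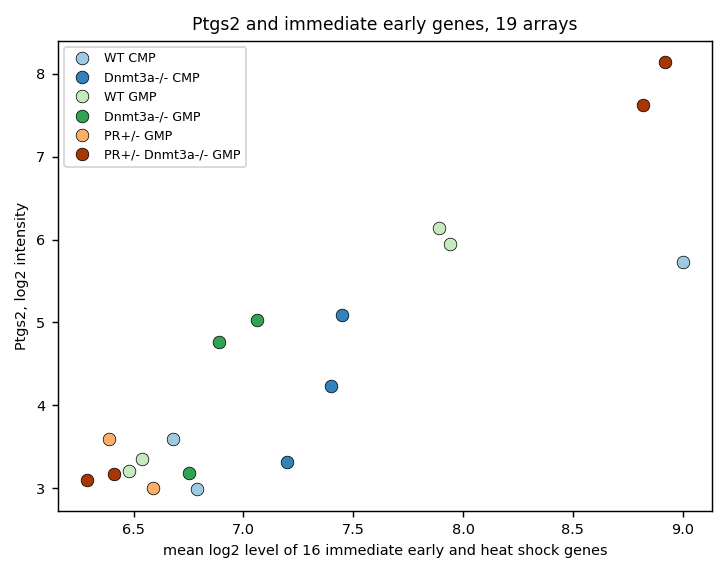
Ptgs2 level (log2 intensity, y axis) against the mean log2 level of 16 immediate early and heat shock genes (x axis) in the 19 arrays, coloured by group. The 5 arrays with a list mean of 7.89 or more have Ptgs2 at 5.73 to 8.14, and the other 14 at 2.99 to 5.09.

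Hpgds, which makes prostaglandin D2 in mast and other haematopoietic cells, was dim and was not called in any comparison. Its array values ran from 3.44 to 4.48, under the background percentile of 4.79. In GMP the arrays without Dnmt3a were at 3.56, 3.46 and 3.44 and those of wild type at 3.86, 4.30, 3.73 and 3.65. They did not overlap, and the difference was -0.40 ± 0.18 (limma adjusted p = 0.250). With the brighter probe sets alone its sign turned (0.11).

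Other genes of the pathway were read from a list of 51, of which 44 were measured. In Dnmt3a-/- against wild-type CMP 0 of 44 passed, as in PR+/- Dnmt3a-/- against PR+/- GMP and in both tests of a difference between effects. Of all genes 1.28% passed in the first of these. In Dnmt3a-/- CMP the 2 largest differences were 0.91 ± 0.30 for the thromboxane synthase Tbxas1 (limma adjusted p = 0.182) and -0.87 ± 0.20 for Ptgr1, which inactivates leukotriene B4 (limma adjusted p = 0.0530). Ptgr1 passed without wild-type CMP replicate 1 (-1.08, limma adjusted p = 0.0172). In Dnmt3a-/- GMP 1 of 44 fell, the prostaglandin F receptor Ptgfr (by 0.85 ± 0.18, limma adjusted p = 0.0403), and 0 rose, beside 1.33% of all genes called. Ltb4r1, a receptor for leukotriene B4, differed by 1.03 ± 0.24 and did not pass (limma adjusted p = 0.0588). Between the effects in GMP and CMP, the largest differences were those of Ptgr1 (1.32 ± 0.27, limma adjusted p = 0.230) and Ltb4r1 (1.02 ± 0.36, limma adjusted p = 0.563). Averaged over both cell types, Pla2g4a, the phospholipase that releases arachidonate, rose by 0.55 ± 0.12 and Tbxas1 by 0.78 ± 0.20, while Ptgfr fell by 0.51 ± 0.13 (limma adjusted p = 0.0180, 0.0424 and 0.0421). Of the 44, 2 rose and 1 fell there, beside 5.75% of all genes called. Tbxas1 and Ptgfr did not pass with adjacent title numbers as a random block (limma adjusted p = 0.0616 and 0.0614). Ptgfr was under 4.79 in Dnmt3a-/- GMP and in both CMP groups.

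In wild-type GMP 2 of 44 rose against CMP, Ptgr1 by 1.14 ± 0.19 and the glutathione transferase Mgst1 by 1.79 ± 0.43, and 0 fell, beside 4.3% of all genes called. In Dnmt3a-/- cells 7 rose and 4 fell, beside 10.1%. Ptgr1 rose by 2.47 ± 0.20 (limma adjusted p = 2.05e-05), Mgst1 by 2.07 ± 0.46 and Ltb4r1 by 1.90 ± 0.26 (limma adjusted p = 4.41e-04). Cyp4f18, a hydroxylase of leukotriene B4, rose by 1.16 ± 0.24. The prostacyclin receptor Ptgir (1.08 ± 0.20), the prostamide synthase Prxl2b (0.79 ± 0.21) and the lipoxygenase Alox12e (0.65 ± 0.18) rose as well. The platelet lipoxygenase Alox12 fell by 1.06 ± 0.21 and the thromboxane receptor Tbxa2r by 0.95 ± 0.17, with Ggt5 and Ggt1, which trim leukotriene C4, falling by 0.57 ± 0.15 and 0.53 ± 0.16. Alox12e was under 4.79 in both groups, at 3.63 and 4.27, and Alox12, Ggt5 and Ggt1 were under it in GMP. The mean of the megakaryocyte and platelet genes was 7.46 to 7.88 in these CMP and 6.00 to 6.61 in GMP, and its part was not tested.

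With the fusion 1 of 44 rose against wild-type GMP, beside 3.07% of all genes called. This was Ptgir, by 1.20 ± 0.27 (limma adjusted p = 0.0300), while Mgst1 differed by 1.08 ± 0.32 (limma adjusted p = 0.0949). Between PR+/- Dnmt3a-/- and Dnmt3a-/- GMP 1 of 44 moved, beside 1.24% of all genes called. Tbxas1 fell by 1.91 ± 0.30 (limma adjusted p = 0.00842), from a mean of 6.23 to 4.32, which is under the background percentile of 4.79. Ltb4r1 differed by -1.03 ± 0.34 (limma adjusted p = 0.178) and passed without PR+/- Dnmt3a-/- replicate 3 (-1.36, limma adjusted p = 0.0244). The largest differences without Dnmt3a in PR+/- GMP were those of Mgst1 (-1.34 ± 0.37) and Cyp4f18 (-1.29 ± 0.34), which did not pass (limma adjusted p = 0.593 for both). Ltb4r1 (-1.76 ± 0.52) and Cyp4f18 (-1.68 ± 0.43) differed most between backgrounds in the effect of Dnmt3a loss (limma adjusted p = 0.215 and 0.186). Of the 19 calls among these other genes, 7 held with each array left out: Ptgr1 in both genotypes and Ltb4r1, Cyp4f18, Ptgir, Alox12 and Tbxa2r in Dnmt3a-/- cells. The other 12 were lost without at least 1 array, and the rise of Ptgir with the fusion was lost without either PR+/- array (limma adjusted p up to 0.408). The median change of the 10 members was 0.52 in Dnmt3a-/- CMP, 0.26 in Dnmt3a-/- GMP and -0.40 in PR+/- Dnmt3a-/- against PR+/- GMP, beside -0.04, -0.07 and -0.03 over all genes. For the 44 other genes it was 0.01, 0.01 and -0.07. The 10 members were chosen with their levels in these arrays known, so these medians are no independent evidence of a shift of the pathway.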

How the data were processed

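Sorted progenitors were profiled on 19 Affymetrix mouse exon arrays, from 20 ng of total RNA per sample, per the labels' protocols. The authors deposited 1 linear intensity per probe set and array; RMA, Partek and the build mm9 are named in the submitters' processing notes, and versions and roles are not given in the sources used here. Array medians lay between 53.0 and 56.8, so the values were used as deposited, after taking log2. Of the probe sets 179496 carry 1 symbol, 1328 several and 13469 none; those with 1 symbol were averaged to 15781 genes (median of 9 probe sets), with 2039 symbols updated through RefSeq's GRCm38.p6 (names only). Dim genes were kept. With no detection measure in the deposited table, olfactory receptor genes served as background.

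Groups were compared with limma 3.58.1 in R 4.3.3 (lmFit and eBayes, two-sided, Benjamini-Hochberg over all 15781 genes, threshold 0.05). Comparisons without PR+/- arrays used their 13 arrays in 1 fit, PR+/- Dnmt3a-/- against PR+/- GMP its 6 arrays, and the others the 13 GMP arrays. The comparisons of Dnmt3a-/- and of PR+/- with wild-type GMP share the wild-type arrays. On simulated data 100 genes were raised by 1 log2 unit and 100 others by 2, with independent normal noise. Of the former the fits recovered 66, 67 and 45 in Dnmt3a-/- CMP, Dnmt3a-/- GMP and PR+/- Dnmt3a-/- GMP, each tested over 15781 genes. False calls were 6, 11 and 9. The larger changes ease the adjusted threshold, so recovery can be lower where fewer genes change. Named were all 10 members, of the other pathway genes those past the threshold and the 2 of largest change per comparison, and the 3 genes most alike for each member called; those for Ptgs2 were added after its values were seen. Members, lists and alternatives were chosen with earlier results of these data known. The number of arrays limits the precision. Both PR+/- groups hold replicates numbered 1 and 2, but deviations of same-numbered arrays correlated with only r = 0.0774 and 0.0169, so no pairing was used. Adjacent title numbers link each Dnmt3a-/- CMP array to the Dnmt3a-/- GMP array of the same replicate number; the labels do not say whether such a pair shares a mouse. Replicate 1 had the highest neutrophil genes in both groups (10.27 and 9.94). With the pairs as a random block (correlation 0.181) the same number of members was called in each comparison.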

Additional observations from a re-analysis of the deposited data

Results flagged for a closer look

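Among 20 sets of 4 arrays (10 genes in wild-type GMP and in PR+/- Dnmt3a-/- GMP), 1 held an array far from the rest: Ptgs1 in wild-type GMP, where replicate 2 was at 6.39 and the other 3 at 7.66 to 7.76. Chance alone gives such a gap in about 1 of 20 sets. That array is also 1 of the 5 with high immediate early genes.

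Alox5 stood out for a response to Dnmt3a loss that differed between backgrounds. The effect in PR+/- GMP minus that in wild-type GMP was -2.31 (log2; limma adjusted p = 0.00769).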

How the results depend on the processing

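Of 130 gene results, 7 that lay beyond 1 SE of 0 changed direction under an alternative. With the brighter probe sets alone these were Hpgds in Dnmt3a-/- GMP (0.11) and in PR+/- Dnmt3a-/- against Dnmt3a-/- GMP (-0.0268) and Cysltr1 in PR+/- against wild-type GMP (0.0901). Without the 5 arrays of high immediate early genes they were Lta4h (0.0147) and Ptgs2 (-0.16) in PR+/- Dnmt3a-/- against PR+/- GMP, and Ptgs2 in PR+/- against wild-type GMP (0.0127) and in the difference of effects between backgrounds (-1.21). A further 20 results within 1 SE of 0 changed sign and carry no direction. The number of members called moved as follows. In Dnmt3a-/- CMP, 1 became 2 with all 19 arrays, 4 with array weights, 2 without the 5 arrays and 0 without the dimmest genes, which removes Cysltr2; leaving out 1 array gave 1 to 2. For Dnmt3a-/- GMP, 1 became 2 with weights and 0 with the Y-linked covariate, and 0 to 1 with an array left out. Averaged over both, 2 became 6 with weights and 0 with that covariate. For GMP against CMP in wild type, 2 became 1 with the median of probe sets or without dim genes, 0 with only the groups compared, and 1 to 2 with an array left out. For PR+/- against wild-type GMP, 2 became 1 with the median, only the groups compared or the covariate, and 1 to 2 with an array left out. For PR+/- Dnmt3a-/- against Dnmt3a-/- GMP, 1 became 0 with the median, only the groups compared, all 19 arrays, the covariate or without the 5 arrays, and 0 to 3 with an array left out. The difference of effects between cell types went from 0 to 1 with weights; that between backgrounds went from 1 to 2 with weights and to 0 with the covariate or without the 5 arrays. For GMP against CMP in Dnmt3a-/-, 6 became 4 to 6 with an array left out. Replicate numbers as a block were fitted only in PR+/- Dnmt3a-/- against PR+/- GMP. There the block gave 0 members called (Alox5 -0.83, limma adjusted p = 0.196) and changed no call. Both groups share only replicates 1 and 2, so that difference rests on them. Adjacent title numbers as a random block moved the genes called in the averaged comparison from 907 to 591 and in GMP against CMP in Dnmt3a-/- from 1590 to 2060. The causes were not tested. Counts over all genes moved more: over the alternatives, the 202 genes of Dnmt3a-/- CMP ranged from 61 to 1064, the 210 of Dnmt3a-/- GMP from 48 to 1733 and the 907 of their average from 139 to 3248. GMP against CMP gave 258 to 815 for 678 in wild type and 968 to 3853 for 1590 in Dnmt3a-/-. PR+/- against wild-type GMP gave 43 to 1045 for 484, PR+/- Dnmt3a-/- against Dnmt3a-/- GMP 11 to 935 for 195, and the difference between backgrounds 0 to 40 for 5, while the counts of 0 reached 21 within PR+/- GMP and 48 between cell types. Quantile normalization moved the share of higher calls in PR+/- against wild-type GMP from 71.3% to 57.6%.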
